A study of Mus musculus with 16 samples.

Results

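The integrated stress response was followed through 10 of its genes in CD4+ T cells: the eIF2 alpha kinase genes Eif2ak3 and Eif2ak4, the transcription factor genes Atf4, Atf5 and Ddit3, the phosphatase subunit genes Ppp1r15a and Ppp1r15b, and the genes Asns, Trib3 and Chac1. They were taken by symbol from a table of 16475 genes, each with 1 probe set, and all 10 were measured. Lymph nodes and spleens were taken from female C57BL/6 mice aged 6 to 12 weeks that carry a Foxp3-GFP knock-in reporter, and every group shares this allele. CD4+ cells with GFP (TFoxp3+ cells) and without it (TFoxp3- cells) were sorted to over 97% purity, so a cell's subset is given by the reporter. Activated cells had been cultured for 36 h on antibodies to CD3 and CD28 bound to the plate (5 µg/ml) while receiving human IL-2 at 100 U/ml, and the other cells were lysed ex vivo. All were exposed to cycloheximide (100 µg/ml), which holds ribosomes on mRNA: activated cells once the culture ended, ex vivo cells through their buffers. Polysome-associated mRNA (mRNA with at least 3 ribosomes) and cytosolic mRNA were measured on Affymetrix arrays, which gave 8 groups of 2 arrays. The methods call these biological duplicates, and each ex vivo sample pooled RNA of 2 experiments.

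The integrated stress response starts when a kinase phosphorylates the alpha subunit of translation initiation factor eIF2. PERK, encoded by Eif2ak3, responds to unfolded protein in the endoplasmic reticulum, and GCN2, encoded by Eif2ak4, responds to a shortage of amino acids. Phosphorylated eIF2 lowers translation of most mRNAs, while mRNAs with upstream open reading frames, such as Atf4, Atf5, Ddit3 and Ppp1r15a, are translated better. ATF4 then turns on genes of amino acid supply and of the response's own end, and GADD34 (Ppp1r15a) and CReP (Ppp1r15b) bring a phosphatase back to eIF2. GCN2 is known in T cells as a sensor of tryptophan and arginine shortage. The arrays measured mRNA and neither protein nor phosphorylation of eIF2.

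ATF4 binds a composite element together with C/EBP proteins, and this element has the form TGATGNAA. It was searched on both strands in promoter sequences from 250 bases before to 50 bases after each RefSeq start site (build GRCm38.p6), and a promoter with several matches was counted once. No other motif was searched. The promoter table held 9 of the 10 genes, all but Ppp1r15b. The letters occurred in 3 of these 9 genes (33.3%), and in 4.51% of all 27025 genes and 3.97% of all 32851 promoters of the table. The matches lie in Chac1, Trib3 and Asns, and are shown in 30 bases on the gene's strand with the match in capitals (in Chac1 and Trib3 it reads on the opposite strand, as TTNCATCA).
Chac1: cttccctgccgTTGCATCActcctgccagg
Trib3: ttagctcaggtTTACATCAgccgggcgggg
Asns: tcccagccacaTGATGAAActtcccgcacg
These stretches are chr2:119351038-119351067 (plus strand) for Chac1, chr2:152344028-152344057 (minus strand) for Trib3 and chr6:7693214-7693243 (minus strand) for Asns. The match begins 193 bases upstream of the start site of Chac1, 23 bases upstream of that of Asns, and 14 bases downstream of that of Trib3. A match of letters is a description and not evidence of binding.

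Values are log2 intensities, and 1 unit is a 2-fold difference. Array medians lay between 4.845 and 5.065, and the 2 arrays of a group correlated at r = 0.887 to 0.992 across genes. Arrays are numbered 1 to 16 after the labels: 1 to 8 held ex vivo cells, 9 to 12 activated TFoxp3- cells and 13 to 16 activated TFoxp3+ cells. The array names in the labels follow 3 different patterns, 1 for each of these blocks, so the set of arrays cannot be told apart from activation state, nor from subset in activated cells. Foxp3 itself ran from 9.42 to 10.76 in activated and from 10.29 to 10.65 in ex vivo TFoxp3+ cells, against 5.26 to 6.85 in activated and 3.74 to 4.74 in ex vivo TFoxp3- cells. The 6 measured of 7 T cell markers summed to 13.06 to 14.08. Cd3e stood at 10.01 or more on every array, while Cd4 was at 6.98 to 7.25 in ex vivo and 9.45 to 10.29 in activated TFoxp3+ cells. All 4 regulatory T cell markers summed to 11.26 to 13.46 in TFoxp3+ and 6.47 to 10.14 in TFoxp3- cells. Il2ra among them was higher in activated TFoxp3- (7.78 to 9.75) than in ex vivo TFoxp3+ cells (6.94 to 7.54). Cytosolic Ikzf2 overlapped between these, at 3.87 to 4.27 and 4.06 to 4.33. Of the B cell markers, 3 of 5 were measured. Their summed level was 6.17 to 7.59 in activated TFoxp3+ and 5.17 to 6.47 in activated TFoxp3- cells. Ex vivo it was 8.64 to 9.15 in TFoxp3+ and 8.19 to 8.93 in TFoxp3- cells. Cd79b among them averaged 8.79 in cytosolic mRNA of ex vivo TFoxp3+ cells, where Ms4a1 averaged 3.1 and Pax5 3.95. All 4 stromal and endothelial markers were measured, and their summed level was 6.47 to 8.42 in activated TFoxp3+ cells, 5.78 to 7.14 in activated TFoxp3- cells and 5.57 to 6.40 ex vivo. Pecam1 among them averaged, in cytosolic mRNA, 7.78 in activated TFoxp3+ and 4.76 in activated TFoxp3- cells. All 6 myeloid markers summed to 7.33 to 8.40 in activated TFoxp3+ cells, 6.60 to 7.79 in activated TFoxp3- cells and 7.25 to 7.69 ex vivo, and did not overlap between the activated subsets in polysome-associated mRNA (8.07 to 8.36 in TFoxp3+ against 6.60 to 7.79 in TFoxp3- cells). The 2 measured of 5 erythroid and platelet markers summed to 5.6 to 7.93 in activated TFoxp3+ cells, 5.05 to 5.89 in activated TFoxp3- cells and 4.27 to 5.05 ex vivo. The 4 markers of CD8 T and NK cells summed to 6.68 to 7.01 in activated TFoxp3+ cells, 5.87 to 6.93 in activated TFoxp3- cells and 6.65 to 7.13 ex vivo. The 3′ minus 5′ signal of the beta-actin control probes, a measure of how complete the RNA or its copy was, was −0.59 to −0.20 in activated cells, 4.16 to 4.64 in ex vivo TFoxp3+ cells and 0.82 to 1.38 in ex vivo TFoxp3- cells. That of the GAPDH control probes was 1.04 to 1.32 in activated cells, 3.51 to 4.12 in ex vivo TFoxp3+ cells and 2.26 to 3.37 in ex vivo TFoxp3- cells. The part of these markers and of the actin and GAPDH signals in the results below was not tested.

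**Figure D1:**
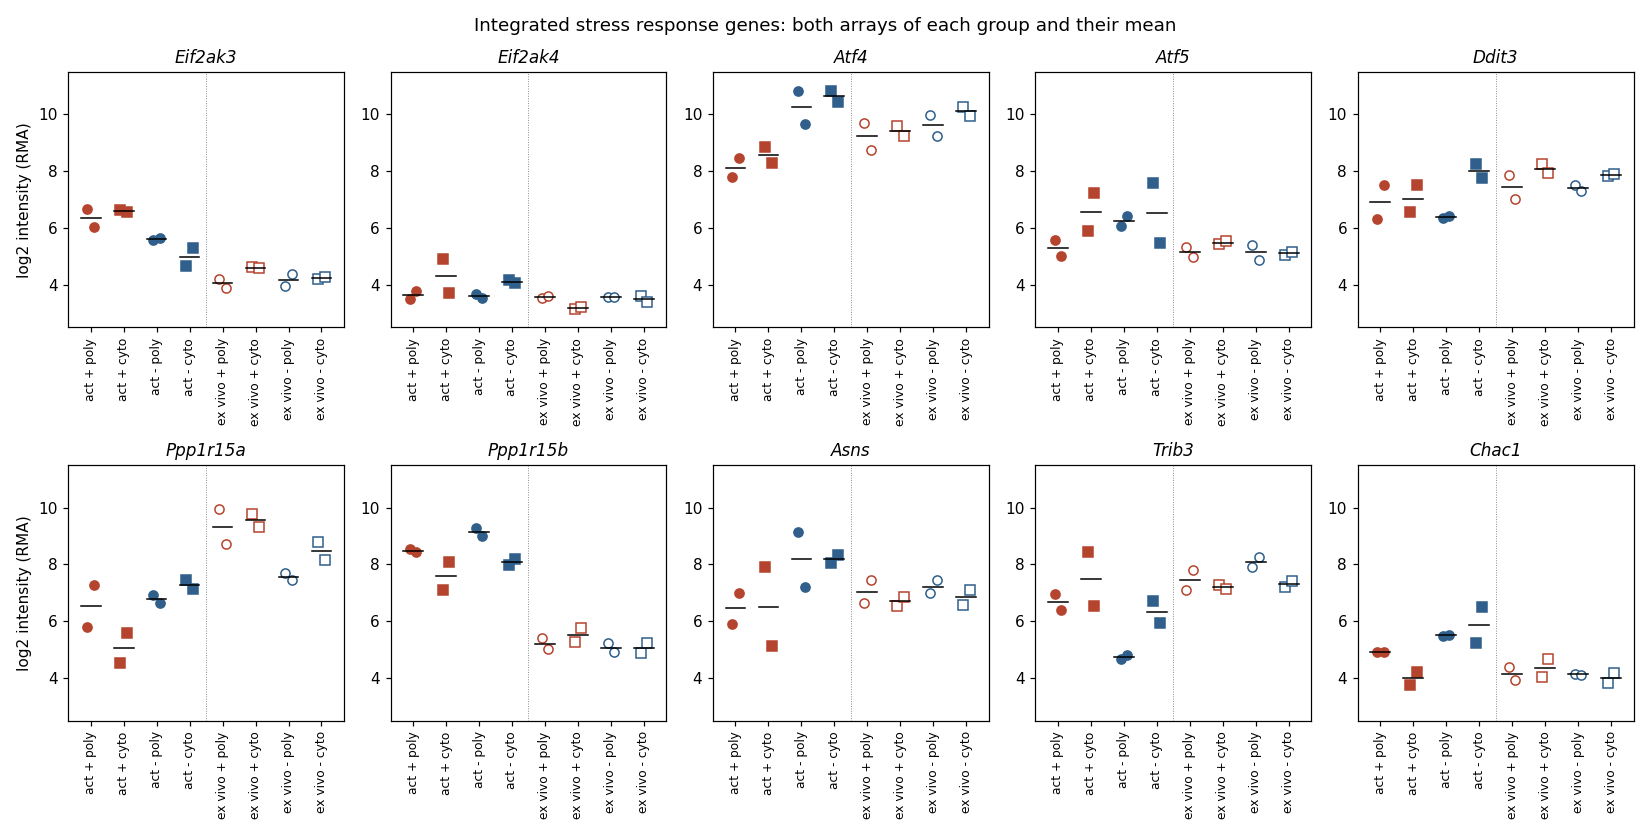
Log2 intensity (vertical axis) of the 10 genes in each of the 8 groups (horizontal axis: act, activated cells, left of the dotted line; + and -, TFoxp3+ in red and TFoxp3- in blue; poly, circles, polysome-associated mRNA; cyto, squares, cytosolic mRNA). Points are the 2 arrays of a group and bars their mean; Ppp1r15b lies between 7.09 and 9.28 in all activated groups and between 4.90 and 5.76 in all ex vivo groups.

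The largest movements among the 10 genes concerned the phosphatase subunits. Group means of Ppp1r15a spanned 4.50 log2 units over the 8 groups and those of Ppp1r15b 4.08, while those of Eif2ak4 spanned 1.10. Eif2ak4 was dim throughout, from 3.16 to 4.90, which on every array was under that array's median. Chac1 (3.77 to 6.51 over all arrays) and, in ex vivo cells, Atf5 (4.87 to 5.55) and Ppp1r15b (4.90 to 5.76) also lay near the array medians. Ex vivo Eif2ak3 (3.89 to 4.62) lay under the median of every ex vivo array. Trib3 in polysome-associated mRNA of activated TFoxp3- cells (4.67 and 4.80) lay under those of its arrays. Arrays can understate differences of such dim genes, and some fold changes below start or end at such values. The 2 arrays of a group could lie far apart in activated cells: the largest gap was 2.78 for Asns, 2.09 for Atf5 and 1.91 for Trib3, against 0.81, 0.53 and 0.68 in ex vivo cells. Groups of 2 arrays can easily fail to overlap without a true difference. Where groups are said below not to overlap, this is a description and not a test.

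The difference of polysome-associated minus cytosolic mRNA asks whether an mRNA is over- or under-represented among mRNAs with at least 3 ribosomes. None of the 10 genes differed at an adjusted p under 0.05 in limma in any of the 4 comparisons. In activated TFoxp3+ cells 4.66% of all 16475 genes passed, and 3 of the 10 had an unadjusted p under 0.05. In activated TFoxp3- cells 3.88% of all genes passed, and 4 of the 10 had an unadjusted p under 0.05. Ex vivo, 0.0364% (TFoxp3+) and 0.0607% (TFoxp3-) of all genes passed, and 0 of the 10 had an unadjusted p under 0.05 in either subset. These shares depended on fitting all groups together. With only the groups compared fitted, 0 of all genes passed in either activated subset. Ex vivo, 5 were then higher and 2 lower in TFoxp3+ cells, and 72 higher and 152 lower in TFoxp3- cells.

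Ppp1r15b, the constitutive phosphatase subunit, had the same sign in both activated subsets. In activated TFoxp3+ cells it was at 8.53 and 8.44 in polysome-associated mRNA, against cytosolic values of 7.09 and 8.08, a difference of 0.90 ± 0.32 (SE; adjusted p = 0.143). In activated TFoxp3- cells it was at 9.28 and 9.0 in polysome-associated mRNA, against cytosolic values of 7.99 and 8.18, a difference of 1.05 ± 0.32 (adjusted p = 0.106). Neither pair of groups overlapped. In TFoxp3+ cells the difference was 1.4 and passed without array 15. In TFoxp3- cells it passed without array 13 or array 15 but stayed at 1.05, since those arrays are of TFoxp3+ cells and set only the shared estimate of spread.

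Ppp1r15a, the stress-induced phosphatase subunit, was at 5.80 and 7.27 in polysome-associated mRNA of activated TFoxp3+ cells, against 4.52 and 5.6 in their cytosolic mRNA. The difference was 1.48 ± 0.53 (adjusted p = 0.144), and it was 2.21 (adjusted p = 0.0366) without array 14. In activated TFoxp3- cells the same gene was at 6.91 and 6.65 in polysome-associated mRNA, against cytosolic values of 7.45 and 7.13, a difference of −0.51 ± 0.53 (adjusted p = 0.669).

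Ddit3 encodes CHOP, a transcription factor that follows ATF4. In activated TFoxp3- cells it was at 6.34 and 6.43 in polysome-associated mRNA, against cytosolic values of 8.24 and 7.76. The groups did not overlap, and the difference of −1.62 (95% interval −2.56 to −0.67) had an adjusted p of 0.0673. It passed without any 1 of arrays 13 to 16 (adjusted p 0.0287 to 0.0423), none of which enters the difference itself, since those arrays set only the shared estimate of spread. In activated TFoxp3+ cells Ddit3 was at 6.33 and 7.53 in polysome-associated mRNA, against cytosolic values of 6.55 and 7.52, and the groups overlapped.

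Trib3, a pseudokinase that restrains ATF4 signalling, was at 4.67 and 4.80 in polysome-associated mRNA of activated TFoxp3- cells, against 6.73 and 5.95 in their cytosolic mRNA. The difference was −1.60 ± 0.52 (adjusted p = 0.122). It passed without array 13 or array 15, which are of TFoxp3+ cells and set only the shared estimate of spread. In activated TFoxp3+ cells Trib3 was at 6.96 and 6.41 in polysome-associated mRNA, against cytosolic values of 8.45 and 6.54 (−0.81 ± 0.52, adjusted p = 0.422), and −1.77 (adjusted p = 0.0308) without array 15. Array 15 also set the value of the kinase gene Eif2ak4 there, which was −0.66 (adjusted p = 0.270) with it and −1.26 (adjusted p = 0.0109) without it.

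Atf4, the central transcription factor of the response, had a mean difference below 0 in each comparison. It was −0.44 (95% interval −1.45 to 0.57) in activated TFoxp3+ cells, −0.40 (−1.40 to 0.61) in activated TFoxp3- cells, −0.19 (−1.20 to 0.82) in ex vivo TFoxp3+ cells and −0.49 (−1.50 to 0.52) in ex vivo TFoxp3- cells. All these intervals include 0, and their lower ends lie at −1.20 or below. Asns, which encodes asparagine synthetase, had mean differences between −0.06 and 0.37 with wider intervals, which together ran from −1.87 to 2.18.

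**Figure D2:**
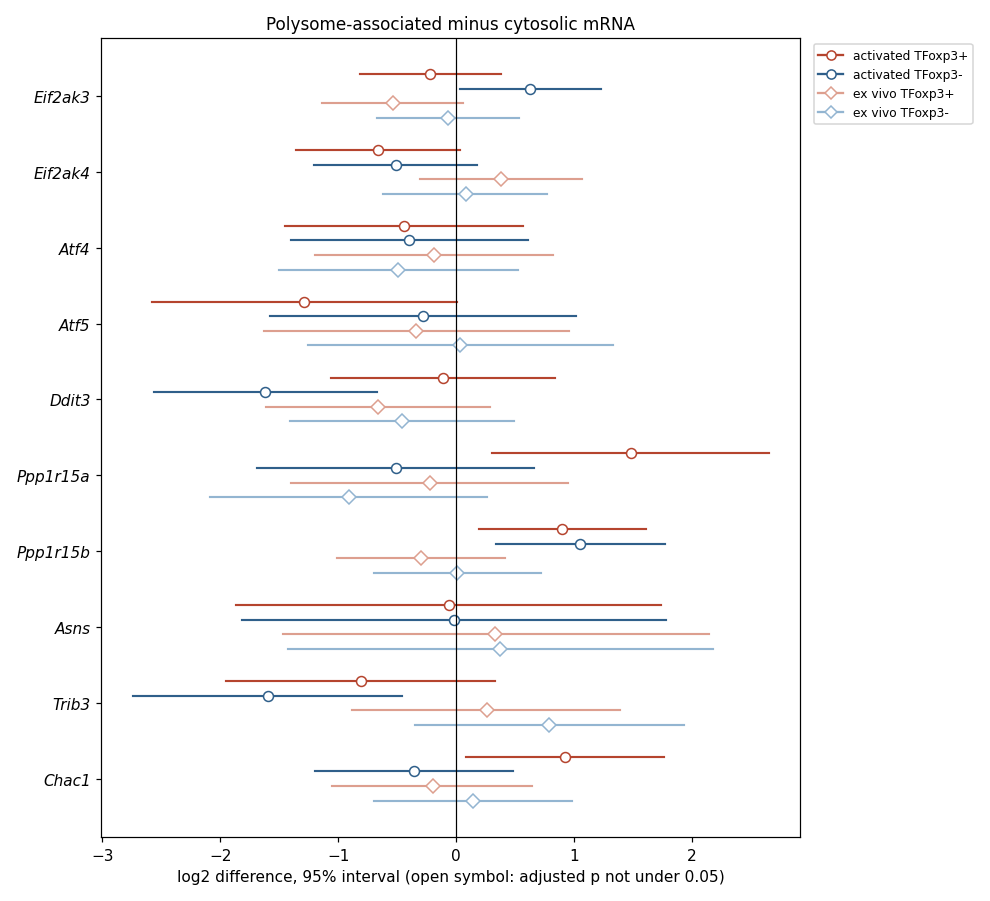
Polysome-associated minus cytosolic mRNA (horizontal axis, log2 difference) for the 10 genes in activated (circles) and ex vivo (diamonds) TFoxp3+ (red) and TFoxp3- (blue) cells; lines are 95% intervals of the fit. All symbols are open because no gene passed an adjusted p of 0.05; the values farthest from 0 are those of Ddit3 (−1.62) and Trib3 (−1.60) in activated TFoxp3- cells.

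Between activated and ex vivo cells, 6 of the 10 genes passed in at least 1 comparison. Ppp1r15b rose in all 4 comparisons of activated minus ex vivo cells, Eif2ak3 rose in 3, and Ppp1r15a fell in both RNA fractions of TFoxp3+ cells. Chac1 rose in both fractions of TFoxp3- cells, Trib3 fell in their polysome-associated mRNA, and Eif2ak4 rose in cytosolic mRNA of TFoxp3+ cells. Atf4, Atf5, Ddit3 and Asns did not pass in any of the 4. These comparisons use bulk RNA, in which fewer cells of a type and less RNA per cell cannot be told apart, and they share arrays with the comparisons of fractions and subsets. Neither the set of arrays nor the time of exposure to cycloheximide can be told apart from state in them. Ex vivo cells met cycloheximide through their buffers, and activated cells only once the culture ended. The actin 3′ minus 5′ signal was −0.59 to −0.20 in activated and 0.82 to 4.64 in ex vivo cells.

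The counts stand against a large background. In polysome-associated mRNA of TFoxp3+ cells 2 of the 10 genes rose and 1 fell, where 14.7% of all genes rose and 14.6% fell. In cytosolic mRNA of TFoxp3+ cells 3 rose and 1 fell, against 16.9% and 14.4% of all genes. In polysome-associated mRNA of TFoxp3- cells 3 rose and 1 fell, against 14.1% and 16.4%, and in their cytosolic mRNA 2 rose and 0 fell, against 13.6% and 12.5%. The counts were thus 0 to 3 of 10 in a direction where 12.5% to 16.9% of all genes passed, and the description rests on the single genes.

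Ppp1r15b stood at 8.53 and 8.44 in polysome-associated mRNA of activated TFoxp3+ cells, against 5.42 and 5.01 in ex vivo TFoxp3+ cells. Its cytosolic mRNA was at 7.09 and 8.08 in activated TFoxp3+ cells, against 5.27 and 5.76 in ex vivo TFoxp3+ cells. These are differences of 3.27 ± 0.32 (9.64-fold, adjusted p = 6.11e-05) and 2.07 ± 0.32 (4.20-fold, adjusted p = 0.000978). All activated arrays were above all ex vivo arrays.

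Ppp1r15b rose in TFoxp3- cells too. In polysome-associated mRNA it was at 9.28 and 9.0 in activated TFoxp3- cells, against 5.23 and 4.92 in ex vivo TFoxp3- cells (4.07 ± 0.32, 16.8-fold, adjusted p = 8.89e-06). In cytosolic mRNA it was at 7.99 and 8.18 in activated TFoxp3- cells, against 4.90 and 5.22 in ex vivo TFoxp3- cells (3.03 ± 0.32, 8.16-fold, adjusted p = 9.65e-05). This gene gave the smallest adjusted p among the 10 in 3 of the 4 comparisons, the exception being cytosolic mRNA of TFoxp3+ cells, where Ppp1r15a had the smallest.

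The other phosphatase subunit went the opposite way. Ppp1r15a was at 5.80 and 7.27 in polysome-associated mRNA of activated TFoxp3+ cells, against 9.95 and 8.72 in ex vivo TFoxp3+ cells. The groups did not overlap, and the fall was 2.80 ± 0.53 on the log2 scale (6.98-fold, adjusted p = 0.003). Its size depended on single arrays: the difference was −2.07 without array 14, −2.19 without array 2, −3.42 without array 6 and −3.54 without array 16, and with only these 2 groups fitted the adjusted p was 0.0672.

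In cytosolic mRNA Ppp1r15a was at 4.52 and 5.6 in activated TFoxp3+ cells, against 9.79 and 9.33 in ex vivo TFoxp3+ cells. This difference of −4.50 ± 0.53 (22.7-fold lower, adjusted p = 0.000188) was the largest of any of the 10 genes in any comparison of states. In TFoxp3- cells it was at 6.91 and 6.65 in polysome-associated mRNA of activated cells, against 7.70 and 7.44 in ex vivo cells, and the difference of −0.79 ± 0.53 did not pass (adjusted p = 0.299). In their cytosolic mRNA it was at 7.45 and 7.13 in activated cells, against 8.79 and 8.17 in ex vivo cells (−1.19 ± 0.53, adjusted p = 0.126). In each of the 4 comparisons the arrays of activated cells lay under those of ex vivo cells.

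**Figure D3:**
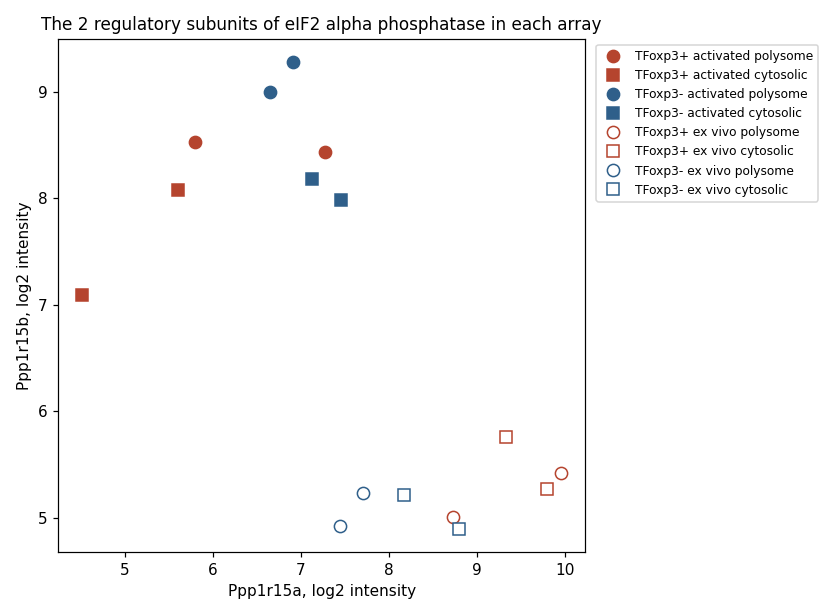
Ppp1r15a (horizontal axis) against Ppp1r15b (vertical axis), both in log2 intensity, on each of the 16 arrays; filled symbols are activated and open symbols ex vivo cells, red TFoxp3+ and blue TFoxp3-, circles polysome-associated and squares cytosolic mRNA. Activated arrays lie at 7.09 or more for Ppp1r15b and 7.45 or less for Ppp1r15a; ex vivo arrays lie at 5.76 or less for Ppp1r15b and 7.44 or more for Ppp1r15a.

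Among the kinase genes, Eif2ak3 (PERK) was at 6.67 and 6.05 in polysome-associated mRNA of activated TFoxp3+ cells, against 4.22 and 3.89 in ex vivo TFoxp3+ cells. The cytosolic values were 6.62 and 6.55 in activated TFoxp3+ cells, against 4.62 and 4.58 in ex vivo TFoxp3+ cells. The rises were 2.30 ± 0.27 (4.94-fold, adjusted p = 0.000177) and 1.99 ± 0.27 (3.96-fold, adjusted p = 0.000449). In polysome-associated mRNA of TFoxp3- cells Eif2ak3 was at 5.58 and 5.64 in activated cells, against 3.95 and 4.38 in ex vivo cells (1.45 ± 0.27, 2.73-fold, adjusted p = 0.00211). In cytosolic mRNA of TFoxp3- cells it was at 4.68 and 5.28 in activated cells, against 4.20 and 4.27 in ex vivo cells, and the difference of 0.74 ± 0.27 did not pass (adjusted p = 0.0667). Without array 9 the difference was 1.05 and passed. It also passed, at 0.74, without array 14 or 16, which are of TFoxp3+ cells and set only the shared estimate of spread. No activated array of Eif2ak3 fell within the range of the ex vivo arrays of the same subset and fraction.

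Eif2ak4 (GCN2) was at 4.90 and 3.70 in cytosolic mRNA of activated TFoxp3+ cells, against 3.16 and 3.23 in ex vivo TFoxp3+ cells. The difference of 1.10 ± 0.31 (adjusted p = 0.022) rested largely on array 13: without it the difference was 0.50 (adjusted p = 0.118), and without array 15 it was 1.71 (adjusted p = 0.000561). The call was also lost without array 1 (adjusted p = 0.101) or array 5 (0.0857), with only these 2 groups fitted (0.165) and after cyclic loess (0.0853). In the other 3 comparisons the differences of Eif2ak4 were between 0.02 and 0.61 and did not pass.

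Chac1, which encodes an enzyme that degrades glutathione and is a known late target of ATF4 and CHOP, was at 5.49 and 5.51 in polysome-associated mRNA of activated TFoxp3- cells, against 4.16 and 4.12 in ex vivo TFoxp3- cells. The rise was 1.36 ± 0.38 (2.57-fold, adjusted p = 0.0198), although leaving out any 1 of these 4 arrays (4, 8, 10 or 12) ended the call (adjusted p 0.0694 to 0.0923) while the difference stayed between 1.34 and 1.38. In cytosolic mRNA it was at 5.22 and 6.51 in activated TFoxp3- cells, against 3.81 and 4.19 in ex vivo TFoxp3- cells. This rise of 1.86 ± 0.38 (3.64-fold, adjusted p = 0.00493) was 2.51 without array 9 and 1.22 without array 11, and did not pass with only these 2 groups fitted (adjusted p = 0.0552). In TFoxp3+ cells the differences were 0.77 (adjusted p = 0.158) and −0.36 (adjusted p = 0.509).

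Trib3 fell in polysome-associated mRNA of TFoxp3- cells, where it was at 4.67 and 4.80 in activated cells, against 7.92 and 8.28 in ex vivo cells. The difference was −3.37 ± 0.52 (10.3-fold lower, adjusted p = 0.00059). Its cytosolic values were 6.73 and 5.95 in activated TFoxp3- cells, against 7.21 and 7.42 in ex vivo TFoxp3- cells (−0.98 ± 0.52, adjusted p = 0.191). The 2 lowest Trib3 values of all 16 arrays were those of polysome-associated mRNA of activated TFoxp3- cells. In TFoxp3+ cells the differences were −0.77 (adjusted p = 0.293) in polysome-associated and 0.30 (adjusted p = 0.691) in cytosolic mRNA, and the second was 1.26 (adjusted p = 0.0393) without array 15.

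Atf4 had differences of opposite sign in the subsets, and none passed. They were −1.11 (adjusted p = 0.0919) in polysome-associated and −0.86 (adjusted p = 0.178) in cytosolic mRNA of TFoxp3+ cells, and 0.63 (adjusted p = 0.335) and 0.54 (adjusted p = 0.421) in polysome-associated and cytosolic mRNA of TFoxp3- cells. Atf5, a relative of ATF4 that also has upstream open reading frames, had positive differences in all 4 comparisons, from 0.13 to 1.42 (lowest adjusted p = 0.101). Those of Ddit3 ran from −1.06 to 0.14 (lowest adjusted p = 0.085) and those of Asns from −0.58 to 1.36 (lowest adjusted p = 0.251). The 95% interval of Asns reached from −0.44 to 3.16 in cytosolic mRNA of TFoxp3- cells, and its difference of 1.36 there passed with only these 2 groups fitted (adjusted p = 0.0304). Other alternatives changed calls too. In TFoxp3- cells Atf5 passed in cytosolic mRNA without array 11 (2.47, adjusted p = 0.00743) and with array weights (1.42, 0.041), and in polysome-associated mRNA with only these 2 groups fitted (1.11, 0.0438). The difference of Ddit3 in polysome-associated mRNA of TFoxp3- cells, −1.02, passed with only these 2 groups fitted (adjusted p = 0.0226) and with array weights (0.0437). It also passed without array 14 or 16, which are of TFoxp3+ cells and set only the shared estimate of spread. In cytosolic mRNA of TFoxp3+ cells the difference of Ddit3 was −1.54 and passed without array 15. It passed at −1.06 without array 14 or 16, which hold polysome-associated mRNA and set only the shared estimate of spread.

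**Figure D4:**
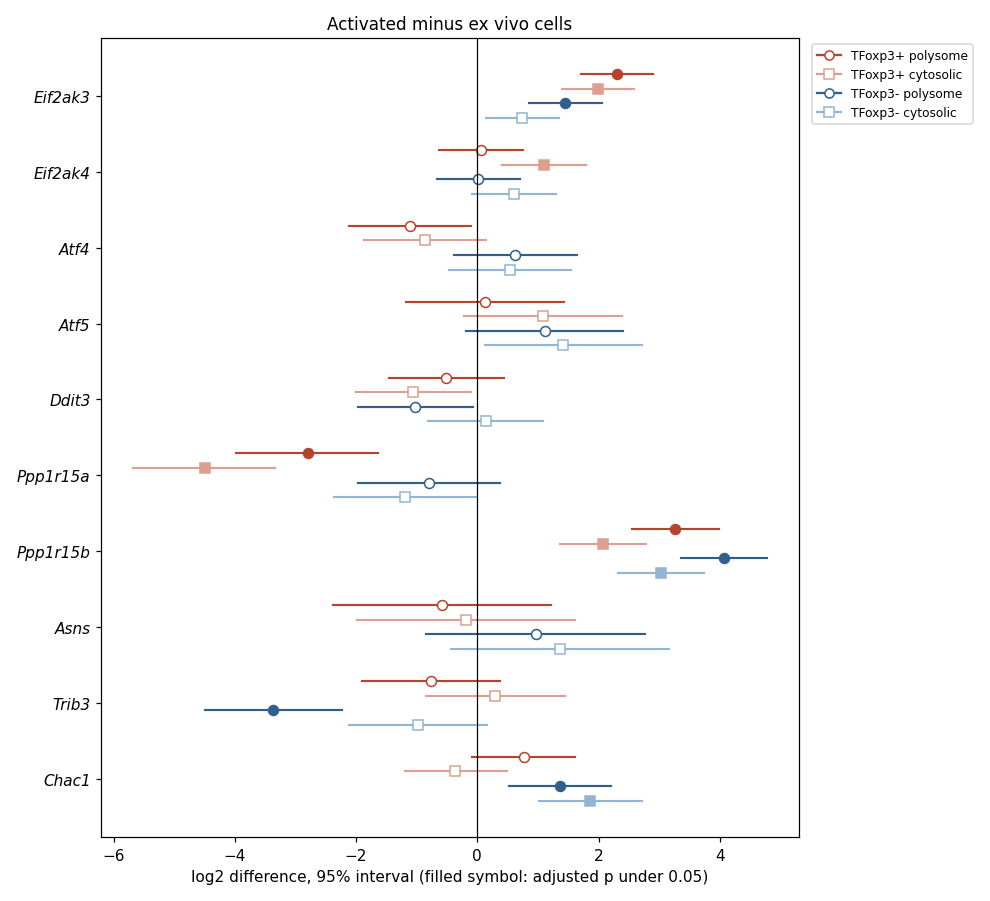
Activated minus ex vivo cells (horizontal axis, log2 difference) for the 10 genes in polysome-associated (circles) and cytosolic (squares) mRNA of TFoxp3+ (red) and TFoxp3- (blue) cells; lines are 95% intervals and filled symbols mark an adjusted p under 0.05. Ppp1r15b is filled in all 4 comparisons, from 2.07 to 4.07, and Ppp1r15a in both of TFoxp3+ cells, at −2.80 and −4.50.

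Between the subsets, differences passed in the full fit in the activated but not in the ex vivo state. The threshold was an adjusted p of 0.15, which the methods state for activated cells and which was used here for both states. Atf4 was lower in activated TFoxp3+ than in activated TFoxp3- cells in both RNA fractions, Eif2ak3 was higher in both, and in 1 fraction each Trib3 was higher, and Ppp1r15a and Chac1 were lower. In polysome-associated mRNA of activated cells 2 of the 10 genes were higher and 1 lower in TFoxp3+ cells, where 18.7% of all genes were higher and 13.7% lower. In cytosolic mRNA of activated cells 1 was higher and 3 lower, where 13.8% of all genes were higher and 12.2% lower. All genes together had a median difference of 0.20 in the polysome and 0.13 in the cytosolic fraction, against which the values below are to be read, and of 0.03 and 0.02 after cyclic loess. In activated cells the subset cannot be told apart from the set of arrays. The full fit shares its estimate of spread between the states. The median SD over all genes was 0.24 to 0.33 in activated groups and 0.12 to 0.16 in ex vivo groups. With only the groups compared fitted, the activated calls of Eif2ak3, Ppp1r15a, Chac1 and polysome-associated Atf4 were lost. Ex vivo, Ppp1r15a then passed in both fractions, and Atf4 and Atf5 in cytosolic mRNA. The activated calls of Trib3 in polysome-associated and Atf4 in cytosolic mRNA were kept in that fit. The contrast between the states thus depended in part on fitting all groups together. Fitting only the groups compared also leaves fewer degrees of freedom, and its part was not told apart from that of the shared spread.

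Atf4 was at 7.79 and 8.46 in polysome-associated mRNA of activated TFoxp3+ cells, against 10.84 and 9.66 in activated TFoxp3- cells. Cytosolic Atf4 was at 8.85 and 8.29 in activated TFoxp3+ cells, against 10.84 and 10.45 in activated TFoxp3- cells. The differences were −2.13 ± 0.46 (4.37-fold lower, adjusted p = 0.0125) and −2.08 ± 0.46 (4.22-fold lower, adjusted p = 0.0162). All 4 arrays of activated TFoxp3+ cells were under all 4 of activated TFoxp3- cells. In polysome-associated mRNA the difference was −1.54 without array 10 and −2.72 without array 12, and it did not pass with only these 2 groups fitted (adjusted p = 0.182). In cytosolic mRNA it did not pass with array weights (adjusted p = 0.154). In ex vivo cells polysome-associated Atf4 was at 9.71 and 8.76 in TFoxp3+ and 9.99 and 9.25 in TFoxp3- cells (−0.38, adjusted p = 0.825). Cytosolic Atf4 was at 9.61 and 9.25 in ex vivo TFoxp3+ and 10.28 and 9.94 in ex vivo TFoxp3- cells (−0.68, adjusted p = 0.627). Neither passed in the full fit. The cytosolic difference passed with only these 2 groups fitted (adjusted p = 0.0748) and with array weights (0.145).

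Eif2ak3 was higher by 1.60 ± 0.27 (3.04-fold, adjusted p = 0.0051) in cytosolic mRNA of activated TFoxp3+ cells, at 6.62 and 6.55, against 4.68 and 5.28 in activated TFoxp3- cells. With only these 2 groups fitted it did not pass (adjusted p = 0.17). In polysome-associated mRNA it was at 6.67 and 6.05 in activated TFoxp3+ cells, against 5.58 and 5.64 in activated TFoxp3- cells, a difference of 0.75 ± 0.27 (adjusted p = 0.0836). That call was lost without array 10 (adjusted p = 0.205), array 12 (0.187) or array 14 (difference 0.44, adjusted p = 0.343), with only these 2 groups fitted (0.33), with array weights (0.304) and after cyclic loess (0.192). Eif2ak4 differed by 0.04 in polysome-associated and 0.19 in cytosolic mRNA (adjusted p = 0.936 and 0.729), with 95% intervals from −0.65 to 0.74 and from −0.50 to 0.89. Over the alternatives its cytosolic difference ran from −0.41 to 0.79, and the value of 0.79 came without array 15.

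Trib3 was at 6.96 and 6.41 in polysome-associated mRNA of activated TFoxp3+ cells, against 4.67 and 4.80 in activated TFoxp3- cells. The difference of 1.95 ± 0.52 (3.86-fold, adjusted p = 0.029) passed in every alternative run. In cytosolic mRNA Trib3 was at 8.45 and 6.54 in activated TFoxp3+ cells, against 6.73 and 5.95 in activated TFoxp3- cells, and the groups overlapped (1.16 ± 0.52, adjusted p = 0.166), while without array 15 the difference was 2.12 (adjusted p = 0.00952).

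Ppp1r15a and Chac1 differed in cytosolic mRNA. Ppp1r15a was at 4.52 and 5.6 in activated TFoxp3+ cells, against 7.45 and 7.13 in activated TFoxp3- cells (−2.23 ± 0.53, 4.70-fold lower, adjusted p = 0.0233). Chac1 was at 3.77 and 4.23 in activated TFoxp3+ cells, against 5.22 and 6.51 in activated TFoxp3- cells (−1.86 ± 0.38, 3.63-fold lower, adjusted p = 0.0125). Neither pair overlapped. Neither passed with only these 2 groups fitted (adjusted p = 0.163 for Ppp1r15a and 0.241 for Chac1), Ppp1r15a did not with array weights (0.153), and the Chac1 difference was −2.50 without array 9 and −1.21 without array 11. In polysome-associated mRNA the differences were −0.24 (adjusted p = 0.775) for Ppp1r15a and −0.58 (adjusted p = 0.311) for Chac1.

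The other 4 genes did not pass in activated cells. The differences of Asns were −1.73 (adjusted p = 0.168) and −1.68 (0.202) in polysome-associated and cytosolic mRNA, and those of Ppp1r15b were −0.66 (0.183) and −0.50 (0.335). Ddit3 differed by 0.54 (0.397) and −0.96 (0.169), and Atf5 by −0.96 (0.274) and 0.04 (0.972). The Asns values were scattered, at 5.91 and 7.01 (polysome-associated) and 7.91 and 5.13 (cytosolic) in activated TFoxp3+ cells, against 9.15 and 7.22 (polysome-associated) and 8.06 and 8.35 (cytosolic) in activated TFoxp3- cells. Without array 13 the Asns difference in cytosolic mRNA was −3.07 (adjusted p = 0.0215), and without array 12 that in polysome-associated mRNA was −2.69 (adjusted p = 0.0969). Without array 15 the cytosolic differences of Ddit3 (−1.45, adjusted p = 0.0798) and Ppp1r15b (−1.0, adjusted p = 0.061) passed as well.

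In ex vivo cells 0 of the 10 genes passed in limma in either fraction, where 3.87% (polysome-associated) and 4.64% (cytosolic) of all genes did, and 1 and 0 of the 10 had an unadjusted p under 0.05. The 1 was Ppp1r15a in polysome-associated mRNA, at 9.95 and 8.72 in ex vivo TFoxp3+ cells, against 7.70 and 7.44 in ex vivo TFoxp3- cells. The groups did not overlap, and the difference of 1.77 ± 0.53 (3.40-fold, adjusted p = 0.166) passed with only these 2 groups fitted (adjusted p = 0.0673), with array weights (0.01), after cyclic loess (0.0898) and among genes above the median mean (0.134). In cytosolic mRNA it was at 9.79 and 9.33 in ex vivo TFoxp3+ cells, against 8.79 and 8.17 in ex vivo TFoxp3- cells (1.08 ± 0.53, adjusted p = 0.461). There it passed with only these 2 groups fitted (adjusted p = 0.0457) and with array weights (0.0414). So did Atf5 with only these 2 groups fitted (0.39, adjusted p = 0.145) and Ppp1r15b with array weights (0.46, adjusted p = 0.144). For Ppp1r15a both fractions were higher in ex vivo TFoxp3+ cells. The sign was thus opposite to that in activated cells. The actin 3′ minus 5′ signal also separated the ex vivo subsets, at 4.16 to 4.64 in TFoxp3+ and 0.82 to 1.38 in TFoxp3- cells. That of GAPDH did too, at 3.51 to 4.12 in TFoxp3+ and 2.26 to 3.37 in TFoxp3- cells.

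**Figure D5:**
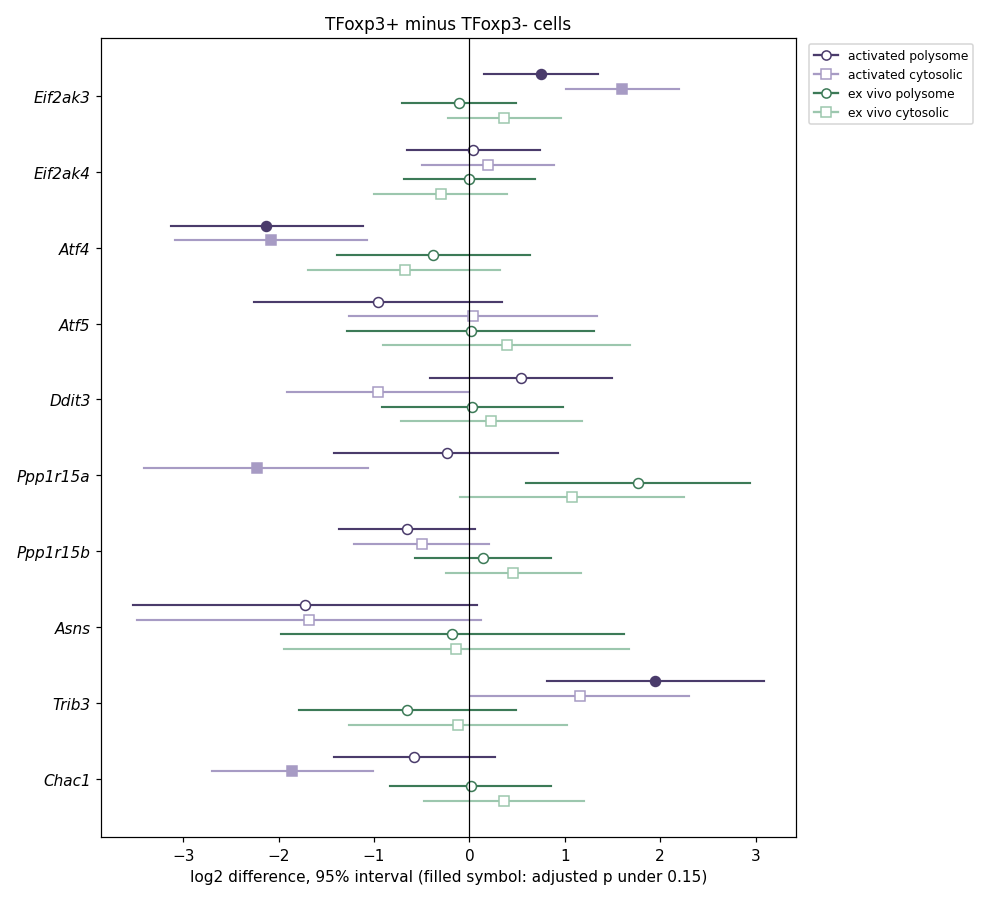
TFoxp3+ minus TFoxp3- cells (horizontal axis, log2 difference) for the 10 genes in polysome-associated (circles) and cytosolic (squares) mRNA of activated (purple) and ex vivo (green) cells; lines are 95% intervals and filled symbols mark an adjusted p under 0.15. Filled symbols occur only among the activated cells. On the left they are Ppp1r15a (−2.23), Atf4 (−2.13 and −2.08) and Chac1 (−1.86), and on the right Trib3 (1.95) and Eif2ak3 (0.75 and 1.60).

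Whether these differences themselves differed was tested as differences of differences, and none of the 10 genes passed in limma in any of 6 such comparisons. The response to activation was compared between TFoxp3+ and TFoxp3- cells, where 2.58% of all genes passed in polysome-associated and 2.07% in cytosolic mRNA, and 4 and 3 of the 10 had an unadjusted p under 0.05. In cytosolic mRNA the response of Ppp1r15a was −4.50 in TFoxp3+ cells and −1.19 in TFoxp3- cells, a difference of −3.31 ± 0.75 (adjusted p = 0.0513). It passed among genes above the median mean (adjusted p = 0.0374) and without array 15 (−3.85). It also passed without array 14 or 16, which are not compared here and set only the shared estimate of spread. The response of Chac1 there was −0.36 in TFoxp3+ cells and 1.86 in TFoxp3- cells, a difference of −2.22 ± 0.54 (adjusted p = 0.0646), which passed after cyclic loess (0.0435) and without array 9 (−2.86, adjusted p = 0.0138).

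In polysome-associated mRNA the response of Trib3 was −0.77 in TFoxp3+ cells and −3.37 in TFoxp3- cells, a difference of 2.60 ± 0.73 (adjusted p = 0.0902). It passed without array 13 or array 15, which hold cytosolic mRNA and set only the shared estimate of spread. For Atf4 the responses differed by −1.74 ± 0.65 (adjusted p = 0.197) in polysome-associated and −1.40 ± 0.65 (adjusted p = 0.338) in cytosolic mRNA. The opposite signs of its responses in TFoxp3+ and TFoxp3- cells were therefore not shown to differ.

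Differential translation, the difference between subsets of the polysome-associated minus cytosolic difference, was tested at an adjusted p of 0.15 in activated and 0.3 in ex vivo cells. In activated cells 7.48% of all genes passed, and 4 of the 10 had an unadjusted p under 0.05: Ppp1r15a (1.99 ± 0.75, adjusted p = 0.215), Ddit3 (1.5 ± 0.61, 0.245), Chac1 (1.28 ± 0.54, 0.268) and Eif2ak3 (−0.86 ± 0.38, 0.297). Without array 14 the first 2 and Eif2ak3 passed (Ppp1r15a 2.72, adjusted p = 0.056; Ddit3 2.10, 0.0616; Eif2ak3 −1.16, 0.115), and without array 9 Chac1 did (1.92, 0.0581). For Atf4 the value was −0.05 (95% interval −1.47 to 1.38). Ex vivo 0% of all genes passed, and 0 of the 10 had an unadjusted p under 0.05.

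How the difference between the fractions changed with activation was tested last. It passed for 0.279% of all genes in TFoxp3+ and 0.158% in TFoxp3- cells, and 3 and 2 of the 10 had an unadjusted p under 0.05. Ppp1r15b was among these in both subsets, with values of 1.2 ± 0.46 (adjusted p = 0.321) in TFoxp3+ and 1.04 ± 0.46 (adjusted p = 0.455) in TFoxp3- cells. The largest value in size was that of Trib3 in TFoxp3- cells, −2.39 ± 0.73 (adjusted p = 0.249). In TFoxp3+ cells the value of Eif2ak4 was −1.04 ± 0.45 (adjusted p = 0.391), and −1.64 (adjusted p = 0.026) without array 15.

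Other genes of the pathway were read from lists of the same kind. Their calls are those of the full fit, and the alternatives are given for them only between the fractions of activated cells. Of the eIF2 machinery (subunits of eIF2, of its exchange factor eIF2B and regulators of the kinases) 12 of 14 genes were measured. In activated TFoxp3+ minus activated TFoxp3- cells 1 was higher and 5 lower in polysome-associated mRNA, and 1 higher and 6 lower in cytosolic mRNA, with medians of −0.68 and −0.77 against 0.20 and 0.13 over all genes. Of all genes 18.7% were higher and 13.7% lower in polysome-associated mRNA, and 13.8% higher and 12.2% lower in cytosolic mRNA. Nck1, an adaptor protein known to act on PERK and on eIF2 phosphorylation, averaged 5.06 in polysome-associated mRNA of activated TFoxp3+ cells and 7.26 in that of activated TFoxp3- cells (adjusted p = 0.0203). Eif2b5, the catalytic subunit of eIF2B, averaged 7.30 in cytosolic mRNA of activated TFoxp3+ cells and 9.42 in that of activated TFoxp3- cells (adjusted p = 0.00411).

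The kinase gene Eif2ak1 (HRI, known as the heme-regulated kinase) was over-represented in polysome-associated mRNA of both activated subsets. It averaged 6.63 in the polysome and 5.19 in the cytosolic fraction of activated TFoxp3+ cells (1.44 ± 0.30, adjusted p = 0.0232). In activated TFoxp3- cells it averaged 7.48 in the polysome and 6.17 in the cytosolic fraction (1.31 ± 0.30, adjusted p = 0.039). Like every call between the fractions of activated cells, these calls of Eif2ak1 were lost with only the groups compared fitted. With activation 3 genes of this list rose and 1 fell in polysome-associated mRNA of TFoxp3+ cells, and 6 rose and 2 fell in that of TFoxp3- cells, where 14.7% and 14.1% of all genes rose and 14.6% and 16.4% fell. In cytosolic mRNA 3 rose and 3 fell in TFoxp3+ cells, with a median of −0.29 against 0.13 over all genes, and 2 rose and 0 fell in TFoxp3- cells. Of all genes 16.9% and 13.6% rose and 14.4% and 12.5% fell in these 2 comparisons. Eif2b4, a subunit of eIF2B, fell in both fractions of TFoxp3+ cells, by 2.43 (adjusted p = 0.000588) in polysome-associated and 1.80 (adjusted p = 0.00318) in cytosolic mRNA. Among those that rose Eif2s2, the beta subunit of eIF2, averaged 7.09 in polysome-associated mRNA of activated and 4.60 in that of ex vivo TFoxp3- cells (adjusted p = 0.000516).

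Of 40 listed targets of ATF4, 38 were measured. In cytosolic mRNA 1 was higher and 13 were lower in activated TFoxp3+ than in activated TFoxp3- cells, where 13.8% of all genes were higher and 12.2% lower, with a median difference of −0.58 against 0.13 over all genes. Mthfd2, a mitochondrial enzyme of one-carbon metabolism, averaged 6.48 in cytosolic mRNA of activated TFoxp3+ cells and 8.68 in that of activated TFoxp3- cells (adjusted p = 0.000891). Iars1, the isoleucyl-tRNA synthetase, averaged 3.26 in cytosolic mRNA of activated TFoxp3+ cells and 8.13 in that of activated TFoxp3- cells (SE 0.75, adjusted p = 0.00339). The mean of 3.26 is a dim value, under the median of 5.06 on each array of its group. In polysome-associated mRNA the same list had 5 higher and 6 lower, where 18.7% of all genes were higher and 13.7% lower, with a median of −0.15 against 0.20 over all genes. There Ero1a, an oxidase of the endoplasmic reticulum, averaged 5.19 in activated TFoxp3+ cells and 8.60 in activated TFoxp3- cells (adjusted p = 0.000605), whereas Ddit4, an inhibitor of mTORC1, averaged 12.92 in activated TFoxp3+ cells and 9.81 in activated TFoxp3- cells (adjusted p = 0.000931).

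With activation 11 of these targets rose and 4 fell in polysome-associated mRNA of TFoxp3+ cells, 6 rose and 4 fell in their cytosolic mRNA, 6 rose and 3 fell in polysome-associated mRNA of TFoxp3- cells, and 9 rose and 1 fell in cytosolic mRNA of TFoxp3- cells. Of all genes 14.7%, 16.9%, 14.1% and 13.6% rose and 14.6%, 14.4%, 16.4% and 12.5% fell in these 4 comparisons, so several of the counts lay near the share over all genes. Medians were 0.62, 0.04, 0.46 and 0.64, against 0.09, 0.13, 0.02 and 0.11 over all genes. Bcat1, which transfers the amino group of branched-chain amino acids, rose in all 4, most in polysome-associated mRNA of TFoxp3- cells, where it averaged 9.88 in activated and 5.23 in ex vivo cells (adjusted p = 8.01e-07). Psat1, an enzyme of serine synthesis, averaged 12.15 in polysome-associated mRNA of activated and 8.0 in that of ex vivo TFoxp3- cells (adjusted p = 4.15e-06). The response to activation differed between the subsets for 3 of the 38 targets in polysome-associated mRNA (1 higher and 2 lower in TFoxp3+ cells), where 2.58% of all genes passed. In cytosolic mRNA, where 2.07% of all genes passed, it differed for 1 target. The smallest adjusted p was that of Ddit4 in polysome-associated mRNA, whose response was higher in TFoxp3+ than in TFoxp3- cells by 3.90 ± 0.56 (adjusted p = 0.00759). For Bcat1 the response in cytosolic mRNA was smaller in TFoxp3+ than in TFoxp3- cells (−1.93 ± 0.32, adjusted p = 0.016), and for Psat1 so was that in polysome-associated mRNA (−2.20 ± 0.41, adjusted p = 0.0199).

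In polysome-associated minus cytosolic mRNA, 3 of the 38 targets were higher and 0 lower in activated TFoxp3+ cells, and 2 higher and 0 lower in activated TFoxp3- cells, where 4.66% and 3.88% of all genes passed in either direction. Mthfd2 was among them in both: it averaged 8.47 in the polysome and 6.48 in the cytosolic fraction of activated TFoxp3+ cells (adjusted p = 0.00351), and 9.90 in the polysome and 8.68 in the cytosolic fraction of activated TFoxp3- cells (adjusted p = 0.0288). With only the groups compared fitted, all these calls of targets in activated cells were lost. Ex vivo 0 of the 38 passed in limma in either subset, with 3 (TFoxp3+) and 2 (TFoxp3-) at an unadjusted p under 0.05. Of all genes 0.0364% (TFoxp3+) and 0.0607% (TFoxp3-) passed there. In activated cells the median differential translation of the 38 targets was 0.34, against 0.06 over all genes. Differential translation passed for 3 targets with higher and 1 with lower values in TFoxp3+ cells, where 7.48% of all genes passed in either direction. The lower one was Ero1a, at −2.47 ± 0.56 (adjusted p = 0.0489), and among the higher ones Wars1, the tryptophanyl-tRNA synthetase, was at 1.54 ± 0.37 (adjusted p = 0.0603).

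All 6 listed partners and relatives of ATF4 were measured. Atf3, a transcription factor induced by ATF4, rose with activation in TFoxp3- cells, where it averaged 8.22 in polysome-associated mRNA of activated and 4.04 in that of ex vivo cells (adjusted p = 0.00023), and 8.37 in cytosolic mRNA of activated and 3.74 in that of ex vivo cells (adjusted p = 0.00019). It was lower in activated TFoxp3+ than in activated TFoxp3- cells, at a mean of 4.97 against 8.22 in polysome-associated mRNA (adjusted p = 0.00427) and 5.51 against 8.37 in cytosolic mRNA (adjusted p = 0.00948). Of the 6 genes, 2 were higher and 1 lower in activated TFoxp3+ cells in polysome-associated mRNA, where 18.7% of all genes were higher and 13.7% lower. In cytosolic mRNA 0 were higher and 3 lower, where 13.8% of all genes were higher and 12.2% lower. Cebpb, another C/EBP factor, averaged 7.78 in polysome-associated mRNA of activated TFoxp3+ cells and 6.47 in that of activated TFoxp3- cells (adjusted p = 0.0239). The response of Atf3 in polysome-associated mRNA differed between TFoxp3+ and TFoxp3- cells by −3.93 ± 0.79 (adjusted p = 0.0281). Cebpa, also a C/EBP factor, fell with activation in all 4 comparisons, by 1.22 to 3.03 on the log2 scale.

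Of 4 further genes known for regulatory upstream open reading frames, all were measured. Ifrd1, whose mRNA is stabilised when eIF2 is phosphorylated, averaged 5.30 in polysome-associated mRNA of activated TFoxp3+ cells and 9.63 in that of activated TFoxp3- cells (−4.33 ± 0.63, adjusted p = 0.00181). Ibtk averaged 6.78 in the polysome and 4.53 in the cytosolic fraction of activated TFoxp3- cells (2.25 ± 0.49, adjusted p = 0.0317). This call was lost with only the groups compared fitted. Eprs1, the glutamyl-prolyl-tRNA synthetase, rose with activation in all 4 comparisons, by 1.30 to 2.94. Slc35a4 fell with activation in polysome-associated mRNA, where it averaged 9.43 in activated and 10.25 in ex vivo TFoxp3+ cells (adjusted p = 0.0259), and 9.81 in activated and 10.82 in ex vivo TFoxp3- cells (adjusted p = 0.00832).

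The genes most like each member over the 16 arrays were found by Pearson's r, as a description in which all arrays of a state share that state. Ppp1r15b was closest to Ywhaz and Ranbp1 (r = 0.985 each), Eif2ak3 to Srrm4 (0.967) and Npas1 (0.96), and Ppp1r15a to H2az1 (0.942) and Nsmce1 (0.912). Atf4 was closest to Npat (0.892) and Fbxo17 (0.878), Trib3 to Tepsin (0.915) and Ano10 (0.913), and Chac1 to Rnf126 (0.925) and Tbkbp1 (0.92). For Atf5 they were Cipc (0.926) and Crtap (0.888), for Asns Pprc1 (0.908) and Nup88 (0.879), for Eif2ak4 Phka1 and Nphs1 (0.893 each), and for Ddit3 Map1lc3a (0.863) and Kdelr1 (0.853).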

How the data were processed

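The 16 arrays measured 2 RNA fractions of 2 CD4+ T cell subsets in 2 states. Per the methods, amplification used a whole-transcriptome kit, and the authors normalized with RMA, on 1 custom probe set per Entrez gene. The deposited log2 intensities were used unchanged. Arrays give no read depth, so precision is limited by how many arrays each group has. The sources used here do not state whether all arrays were normalized together. After leaving out 64 control probe sets, 16475 genes were tested (15780 with a symbol).

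Groups were taken from the labels. limma 3.58.1 (R 4.3.3) was fitted to the 16 arrays together, with 8 group means, and gave 18 comparisons with two-sided p-values, adjusted by Benjamini-Hochberg over all 16475 genes in each. SEs and 95% intervals are those of the fit, with 8 residual degrees of freedom before moderation. Thresholds on adjusted p were 0.15 between subsets (stated in the methods for activated cells, used here ex vivo too) and for differential translation in activated cells, 0.3 for differential translation ex vivo and 0.05 otherwise. The study's anota-RVM was not run, since it needs fractions paired by sample. The fit was tested on simulated data in which a gene had the same spread on every array. That test therefore does not cover the unequal spread of activated and ex vivo groups.

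The members and lists were chosen with earlier results of these data known. Named were all 10 members, up to 2 passing genes of each list per comparison with the smallest adjusted p, and the 2 genes with the highest r to each member (without members, unnamed or predicted genes and odorant or vomeronasal receptors). The pathway genes Eif2s1, Eif2s3x, Pycr1 and Gdf15 and some of the listed cell type markers were not analysed here. Alternatives were fitting only the groups compared, array weights, centring arrays, cyclic loess, only genes above the median mean, and leaving out each array. Tables and figures used Python 3.11.15, pandas 2.3.3 and matplotlib 3.10.9. Promoter sequences are from RefSeq (GRCm38.p6).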

Additional observations from a re-analysis of the deposited data

How the results depend on the processing

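Of 180 tests of the 10 genes, 20 passed. Of these, 10 passed under every alternative, 10 did not under at least 1, none reversed, and 42 others passed under at least 1. Counts of genes past the threshold that moved by more than 1.5 times were the following, the cause was not tested, and smaller moves are left out. In activated minus ex vivo cells, fitting only the groups compared gave 0 lower (1 in the full fit) in polysome-associated mRNA of TFoxp3+ cells and 2 lower (1) in that of TFoxp3- cells, array weights also gave 2 lower in the second, and the filter at the median mean, which tests fewer genes, gave 1 higher (2) in cytosolic mRNA of TFoxp3- cells. In TFoxp3+ minus TFoxp3- cells, activated polysome-associated mRNA had 1 higher (2) with only the groups compared, array weights or cyclic loess, 0 lower (1) with only the groups compared, and 2 lower with centring, cyclic loess or the filter. Activated cytosolic mRNA had 0 higher (1) with only the groups compared, 2 higher with cyclic loess or the filter, and 1 lower (3) with only the groups compared or array weights. Ex vivo polysome-associated mRNA had 1 higher (0) with only the groups compared, array weights, cyclic loess or the filter, and ex vivo cytosolic mRNA 2 higher (0) and 1 lower (0) with only the groups compared or array weights. The activation response in cytosolic mRNA was lower in TFoxp3+ cells for 1 gene (0) with cyclic loess or the filter.

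Leaving out each array gave, for polysome-associated minus cytosolic mRNA, 0 to 1 higher and 0 to 2 lower in each activated subset and 0 ex vivo. For activation it gave 2 higher and 1 lower (polysome-associated TFoxp3+), 2 to 4 and 1 to 2 (cytosolic TFoxp3+), 2 to 3 and 1 to 2 (polysome-associated TFoxp3-), and 2 to 3 and 0 to 1 (cytosolic TFoxp3-). Between subsets it gave 1 to 2 higher and 1 to 3 lower (activated polysome-associated), 1 to 3 and 3 to 5 (activated cytosolic), 0 to 1 and 0 (ex vivo polysome-associated), and 0 and 0 (ex vivo cytosolic). Differential translation gave 0 to 2 higher and 0 to 1 lower in activated cells and 0 ex vivo, the change with activation 0 higher and 0 to 1 lower in TFoxp3+ cells and 0 in TFoxp3- cells, and the activation response 0 to 1 higher in both fractions and 0 to 1 lower in cytosolic mRNA. The lone array left in a group was assumed to vary like the other groups. No paired analysis was possible because the labels number every array separately and name no preparation that arrays of different groups share.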

Other observations

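The unfolded protein response of the endoplasmic reticulum, whose sensor PERK is encoded by Eif2ak3, was read from a list of 17 genes, all of them measured. With activation 9 rose and 2 fell in polysome-associated mRNA of TFoxp3+ cells, 8 rose and 2 fell in their cytosolic mRNA, 8 rose and 1 fell in polysome-associated mRNA of TFoxp3- cells, and 7 rose and 2 fell in cytosolic mRNA of TFoxp3- cells, where 13.6% to 16.9% of all genes rose and 12.5% to 16.4% fell. Medians were 0.90, 0.62, 0.92 and 0.60, against 0.09, 0.13, 0.02 and 0.11 over all genes. Calr, a chaperone of glycoproteins, rose in all 4 comparisons, and averaged 12.91 in polysome-associated mRNA of activated TFoxp3+ cells and 9.28 in that of ex vivo TFoxp3+ cells (adjusted p = 6.94e-06).

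Herpud1, which acts in degradation of misfolded proteins, fell in all 4. It averaged 5.79 in polysome-associated mRNA of activated TFoxp3- cells and 10.22 in that of ex vivo TFoxp3- cells (adjusted p = 2.51e-06), and 7.08 in that of activated TFoxp3+ cells and 9.57 in that of ex vivo TFoxp3+ cells (adjusted p = 0.00014). The response of Herpud1 in polysome-associated mRNA differed between TFoxp3+ and TFoxp3- cells by 1.94 ± 0.40 (adjusted p = 0.0318), and its differential translation in activated cells was 1.85 ± 0.40 (adjusted p = 0.0405). In polysome-associated minus cytosolic mRNA 0 of the 17 genes passed in limma in any of the 4 comparisons, with 3, 3, 0 and 2 at an unadjusted p under 0.05 in activated TFoxp3+, activated TFoxp3-, ex vivo TFoxp3+ and ex vivo TFoxp3- cells. Of all genes 4.66%, 3.88%, 0.0364% and 0.0607% passed, in the same order.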
